A study of Mus musculus with 6 samples.

Results

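Levels of 9 transcription factors of the Müllerian duct, Pax8, Pax2, Emx2, Lhx1, Wt1, Nr2f2, Tcf21, Msx1 and Msx2, were described in the adult mouse uterus. The genes were taken by name, and all 9 were among the 24077 genes of the single-cell table and the 30828 genes of the spatial tables. Female CD-1 mice, an outbred stock, received subcutaneous corn oil (CO) or diethylstilbestrol (DES, a synthetic estrogen, at 1 mg/kg/day) on neonatal days 1 to 5, and uteri were collected at 12 months. A library of single cells was made from 2 pooled CO mice and another from 4 pooled DES mice. Visium spatial RNA, in which each spot of 55 µm is a small region that can hold several cells, was measured in 2 CO sections (CO A and CO B) and 2 DES sections (DES A and DES B) from 1 mouse each. Per the study, adult DES mice were in persistent estrus, CO mice were chosen in estrus, the uterine horns were dissociated without the oviducts, CO B carried a tissue fold, and the clusters of spots were less readily told apart in DES B. A pathologist had examined the tissue before Visium for luminal and glandular epithelium, and in DES for uterine adenocarcinoma. Blocks were then selected and cored to the areas of interest.

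The Müllerian (paramesonephric) ducts of the embryo form from the coelomic epithelium and give rise to the oviducts, uterus and upper vagina. Pax2, Pax8, Emx2 and Lhx1 encode paired-box, homeobox and LIM-homeobox factors that are needed for the duct epithelium to form or persist. Wt1 and Tcf21 mark the coelomic epithelium and the mesenchyme beneath it, Nr2f2 (COUP-TFII) is an orphan nuclear receptor best known in mesenchyme, and the homeobox genes Msx1 and Msx2 act in uterine epithelium around implantation, where they take part in the exchange of signals with the stroma.

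Single-cell values are given as CPM, the unique molecular identifiers (UMIs) of a gene summed over the cells of a group, divided by all UMIs of those cells and scaled to counts per 1e6. Intervals in square brackets are exact 95% intervals that cover counting error only. With 1 library per treatment, ratios between CO and DES cells had no test and no replicate check. The libraries held 32387 CO and 16312 DES cells, with 353460067 and 288919190 UMIs, of which 12253 and 9701 cells had a cell type named by the study. The libraries shared 180 barcodes, 32 of them among the cells with a cell type. The DES library held 1 stromal and 5 endothelial cells and no pericytes or myocytes, so those types were described in CO only. The sections held 9117099 to 12506177 UMIs over 1357 to 1834 spots.

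The named cell types were checked against marker sums. Markers of epithelium (Epcam, Krt8, Krt18, Krt19, Cdh1) summed to 4745 CPM in CO and 3104 CPM in DES epithelial cells. Mesothelial markers (Msln, Upk3b, Lrrn4, Upk1b, Nkain4) summed to 2711 and 2895 CPM in CO and DES mesothelial cells and to at most 576 CPM in the other named types with at least 50 cells. The same mesothelial cells carried 21126 and 21755 CPM of the stromal markers (Dpt, Vcan, Col6a3, Dcn, Lum, Pdgfra), above the 12687 CPM of the cells named stromal, so these markers did not set stroma apart from mesothelium. In the sections, mesothelial markers were nearly absent, at 6.08 and 7.52 CPM in CO and 25.2 and 34.4 CPM in DES. Basal-cell markers (Krt14, Krt5, Trp63) were at 3.36 and 160 CPM in CO sections and 9526 and 5644 CPM in DES sections, and muscle markers (Acta2, Myh11, Des, Cnn1, Actg2) at 13345 and 14168 CPM against 3077 and 3458 CPM.

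The promoters of Msx1, the member that differed most between CO and DES sections, and of Pax8, which belongs to the epithelial set and was higher in gland than in luminal clusters of CO, are shown to let their letters be compared. They were read from RefSeq (GRCm38.p6) as the 250 bases before the annotated start, on the strand of the gene. Capitals mark each CCAAT box, read on either strand (CCAAT or ATTGG).
Msx1, chr5:37824586-37824835, minus strand: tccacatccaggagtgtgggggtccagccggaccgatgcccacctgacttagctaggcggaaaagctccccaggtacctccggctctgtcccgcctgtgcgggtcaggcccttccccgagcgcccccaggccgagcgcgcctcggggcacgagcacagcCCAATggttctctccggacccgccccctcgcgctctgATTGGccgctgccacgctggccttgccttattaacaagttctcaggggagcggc
Pax8, chr2:24475600-24475849, minus strand: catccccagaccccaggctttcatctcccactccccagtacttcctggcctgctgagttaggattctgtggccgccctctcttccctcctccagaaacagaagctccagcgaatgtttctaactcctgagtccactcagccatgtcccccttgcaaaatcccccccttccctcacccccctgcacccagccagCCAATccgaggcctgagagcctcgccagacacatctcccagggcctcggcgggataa
The Msx1 window held a CCAAT starting 91 bases and an ATTGG starting 54 bases before the start, and the Pax8 window a CCAAT starting 57 bases before it. Entries were found for 8 of the 9 members. A CCAAT box lay in the promoters of 6 of them (Pax8, Msx1, Nr2f2, Lhx1, Msx2 and Emx2), against 33.8% of 32851 promoters. Members were counted by gene and the share by promoter, and Pax2 had more than 1 promoter entry. The Msx2 and Emx2 windows lay within the gene positions given below, which come from another annotation. The estrogen response element AGGTCANNNTGACC, searched on both strands, was in 0.0517% of all promoters and in 0 of these 8. The half-site AGGTCA, which lies within that element, was in 14% of all promoters and in 0 of the 8, and the Msx core TAATTG in 7.17% and in 0 of the 8. These are matches of letters within a short window. The 2 printed promoters were rich in G and C, at 68.0% for Msx1 and 60.4% for Pax8 over the 250 bases before the start, against a median of 52.4% over all promoters.

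Across cell types the members fell into an epithelial set (Pax8, Pax2, Msx1 and, in DES, Msx2) and a mesothelial and stromal set (Wt1, Tcf21), with Emx2 and Nr2f2 in both. Between the epithelial cells of the 2 libraries, Msx2 was 10.5 times as high in DES as in CO, and the other 5 members with at least 20 CPM in either library were within 2-fold. Among 6196 genes with that level, 13.2% were at least 2-fold apart (5.60% higher and 7.62% lower in DES). Between the mesothelial cells 0 of 5 members were 2-fold apart, against 3.85% of 6413 genes (1.75% higher and 2.11% lower). The median DES to CO ratio of the members at that level was 1.5 in epithelium, with 1.01 over all genes at that level. In mesothelium it was 1.15, with 0.975 over all genes. Msx2 reached 20 CPM only in DES in both cell types, so the rule could not have counted it as lower. Wt1 (ratio 0.433), Tcf21 (0.520) and Lhx1 (from 2 and 3 UMIs) were under 20 CPM in epithelium of both libraries. They did not enter the epithelial count or median.

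**Figure D1:**
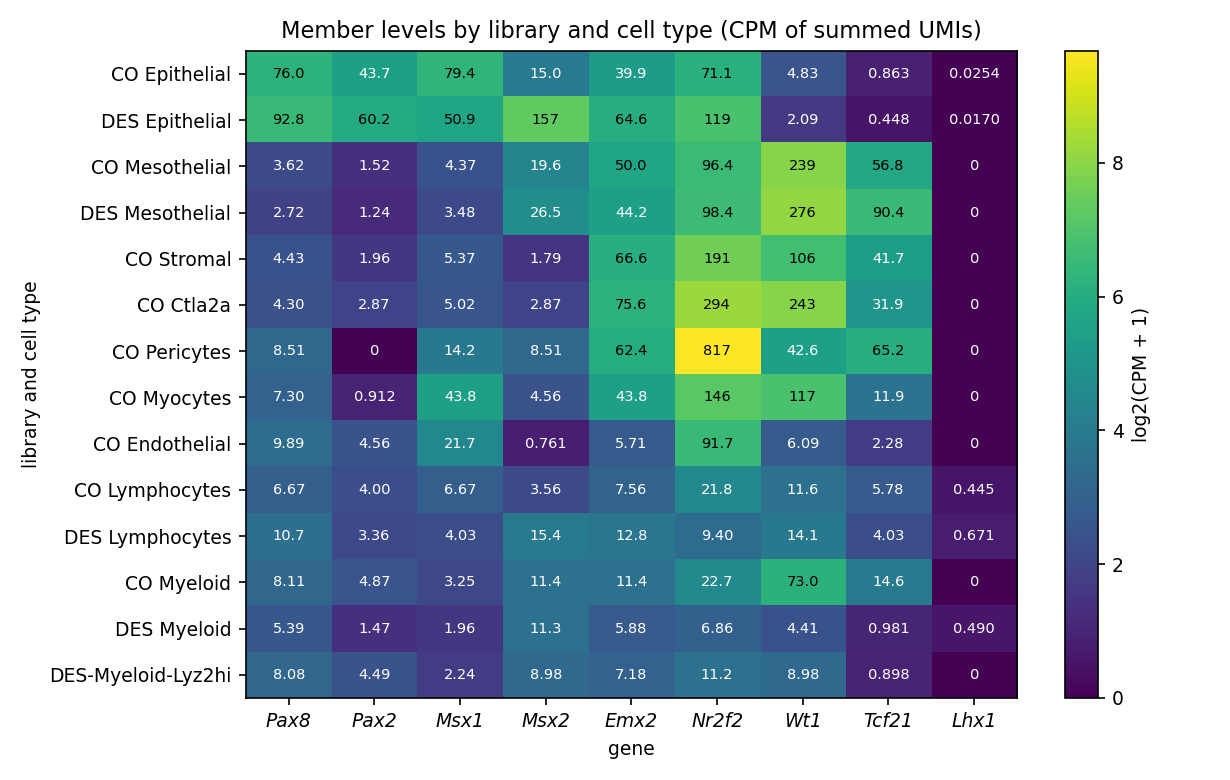
Heat map of the level of each of the 9 genes (columns) in the 14 groups of at least 50 cells of 1 library and cell type (rows). Colour is log2(CPM + 1) and the printed number is CPM; Pax8, Pax2 and Msx1 are high in the epithelial rows, Wt1 and Tcf21 in the mesothelial and stromal rows, and Msx2 reaches 157 CPM in DES epithelium against 15 CPM in CO epithelium.

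Pax8, a paired-box factor that marks Müllerian epithelium through adult life, lies at chr2:24420560-24475599 on the minus strand (GRCm38, GENCODE vM21, as for all gene positions here). It was at 76.0 CPM [74.1 to 77.9] in CO and 92.8 CPM [91.4 to 94.2] in DES epithelial cells, a DES to CO ratio of 1.22 [1.19 to 1.26]. In every other group it was between 2.72 CPM (DES mesothelial cells) and 10.7 CPM (DES lymphocytes), and nearly all neighbours in that lower order had overlapping intervals. After thinning each cell to 3000 UMIs, 19.4% [17.8 to 20.9] of 2562 CO and 23.3% [22.1 to 24.5] of 5201 DES epithelial cells had a Pax8 UMI (73.6% and 80.7% before thinning, at median depths of 23458 and 21900 UMIs). Lymphocytes, taken as background, gave 1.94% and 2.35% (median depths 4033 and 5599 UMIs before thinning).

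Within CO epithelium Pax8 followed the clusters. The study's 15 CO clusters were built from these same cells, so levels by cluster are a description. The gland clusters 3, 8, 13 and 14 held 181, 144, 146 and 143 CPM, the 10 luminal clusters 46.7 to 71.7 CPM, and cluster 12, which the study proposed as epithelial stem cells, 82.0 CPM. Summed over cells, the gland clusters were at 165 CPM and the luminal clusters at 64.5 CPM, a ratio of 2.56 [2.41 to 2.72]. The 16 DES clusters, from which basal cells had been left out, ranged only from 75.9 to 106 CPM, a 1.40-fold span against 3.88-fold in CO. Together they were at 93.5 CPM, which was 1.45 times the luminal and 0.566 times the gland level. The basal cells of the DES library (integrated clusters 8 and 11, 608 cells) kept 78.7 CPM. Below, DES cells outside the basal clusters are the 4608 cells of the 16 clusters. The study left basal cells out of these by their Krt14 and Trp63 counts, not by integrated cluster. The 2 sets are thus not an exact split of the 5255 DES epithelial cells, and their overlap was not checked.

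Pax2, the paralog of Pax8 that the duct needs to persist, lies at chr19:44756045-44837871 on the plus strand. It was at 43.7 CPM [42.3 to 45.2] in CO and 60.2 CPM [59.1 to 61.4] in DES epithelial cells, a ratio of 1.38 [1.33 to 1.43], and at 4.87 CPM or less in every other group. Its clusters were nearly level, at 32.1 to 57.1 CPM in CO and 49.5 to 75.6 CPM in DES. Luminal cells, gland cells, DES cells outside the basal clusters and DES basal cells held 43.0, 46.2, 59.1 and 65.6 CPM, so that Pax2 did not follow the split of gland from lumen that Pax8 did. At 3000 UMIs a cell, 169 of 4559 DES epithelial cells outside the basal clusters (3.71% [3.18 to 4.30]) and 45 of 2076 CO luminal cells (2.17% [1.59 to 2.89]) had a UMI of both Pax8 and Pax2. The product of the shares with either gene was 3.61% and 1.93%, within those intervals.

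In the sections Pax8 was at 43.8 and 68.6 CPM in CO A and CO B and at 77.2 and 87.8 CPM in DES A and DES B. Both DES sections were above both CO sections, but the difference did not pass the test (log2 DES/CO 0.35 ± 0.26 SE, adjusted p = 0.469). Unless DESeq2 is named, each single adjusted p here is from the quasi-likelihood test of edgeR, adjusted over all genes by Benjamini-Hochberg. A range of adjusted p over all alternative settings also takes in the Wald test of DESeq2. Each SE (±) was worked back from that test, as the size of the log2 difference over the square root of its F statistic. The fitted differences scale the section totals by factors (TMM) that bring the median of all genes near 0. With plain totals, a choice made after seeing the data, that median was 0.20 on the log2 scale in whole sections, 0.29 in epithelium-rich spots, 0.07 in stromal spots and 0.21 for the difference between those regions, so a fitted difference can have another sign than the CPM values beside it. In epithelium-rich spots, the top 25% of spots of a section by the share of UMIs from the 5 epithelial markers, Pax8 was at 70.4 and 132 CPM in CO and 106 and 104 CPM in DES. There the groups overlapped, with a log2 difference of -0.24 ± 0.31 (adjusted p = 0.664), or 0.06 with plain totals. Pax8 was 3.16 to 6.01 times as high in epithelium-rich as in stromal spots in the 4 sections. Pax2, at 43.7 to 60.2 CPM in dissociated epithelium, was at 2.96 and 2.81 CPM in CO and 4.94 and 5.16 CPM in DES sections, from 31 to 51 UMIs a section. Its difference was 0.60 ± 0.32 on the log2 scale (adjusted p = 0.335). In epithelium-rich spots the Pax2 levels of the CO and DES sections overlapped. There the fitted difference had the opposite sign and did not pass either (-0.32 ± 0.40, adjusted p = 0.661).

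Msx1, a homeobox repressor of the uterine epithelium, lies at chr5:37820485-37824583 on the minus strand. It was at 79.4 CPM [77.5 to 81.4] in CO and 50.9 CPM [49.9 to 52.0] in DES epithelial cells, a ratio of 0.641 [0.621 to 0.662]. Myocytes of the CO library came next with 43.8 CPM [32.3 to 58.0], whose interval overlapped that of DES epithelium, followed by CO endothelial cells with 21.7 CPM. Every other group was at 14.2 CPM or less. The shares of epithelial cells with an Msx1 UMI at 3000 UMIs were 18.8% [17.3 to 20.3] in CO and 11% [10.1 to 11.9] in DES (64.0% and 39.4% before thinning), with 1.61% and 1.41% of lymphocytes.

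Msx1 varied more between epithelial clusters than any other member with at least 1 UMI in every cluster of both libraries. In CO it was at 531 CPM in cluster 12, where 70.4% [58.4 to 80.7] of 71 cells had a UMI at 3000 UMIs, at 286 CPM in the mature gland cluster 13, at 169, 144 and 91.9 CPM in gland clusters 14, 8 and 3, and at 10.3 CPM in luminal cluster 5, a 51.6-fold span. Cluster 12 was 8.69 times [8.09 to 9.33] and the gland clusters together were 2.16 times the luminal level of 61.1 CPM. In DES it ran from 7.89 CPM in cluster 5, which the study proposed as cancer cells, and 8.34 CPM in cluster 1 to 167, 168 and 189 CPM in clusters 8, 13 and 11, a 24.0-fold span. DES cells outside the basal clusters (52.4 CPM) were at 0.859 times [0.827 to 0.891] the luminal level and 0.397 times the gland level. The DES basal cells held 9.82 CPM, which was 0.187 times [0.153 to 0.227] the level of the 16 DES clusters. In integrated cluster 9, which held 45 CO and 297 DES cells, Msx1 was at 585 CPM in CO and 198 CPM in DES.

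Msx2, the paralog of Msx1, lies at chr13:53466884-53473074 on the minus strand. It was at 15 CPM [14.2 to 15.9] from 1182 UMIs in CO and 157 CPM [155 to 159] from 27644 UMIs in DES epithelial cells. The ratio of 10.5 [9.87 to 11.1] was the 28th highest among 6196 genes. At 3000 UMIs a cell, 4.68% [3.90 to 5.57] of CO and 34.7% [33.4 to 36.0] of DES epithelial cells had an Msx2 UMI (29.1% and 87.2% before thinning). Lymphocytes gave 1.29% [0.353 to 3.27] in CO and 4.69% [2.27 to 8.46] in DES, so the background share also differed between the libraries, and CO epithelium lay above that of its own library. Outside epithelium the order was DES mesothelial cells (26.5 CPM), CO mesothelial cells (19.6 CPM) and DES lymphocytes (15.4 CPM [9.79 to 23.2]), the latter overlapping both CO epithelium and CO mesothelium. The mesothelial ratio was 1.35 [1.26 to 1.45].

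The Msx2 levels of the clusters did not follow those of Msx1 in CO and were nearly flat in DES. In CO, Msx2 had 0 UMIs in gland cluster 14 and was at 1.43, 1.48 and 2.26 CPM in gland clusters 3 and 8 and in cluster 12, but at 32.6 CPM in the mature gland cluster 13 and 25.4 and 23.3 CPM in luminal clusters 5 and 2. In DES the 16 clusters spanned only 1.66-fold, from 122 CPM in cluster 9 to 202 CPM in cluster 7. DES cells outside the basal clusters held 164 CPM, 9.85 times [9.28 to 10.5] the luminal level of 16.7 CPM and 36.7 times the gland level of 4.48 CPM. The DES basal cells held 58.9 CPM, which was 0.358 times [0.331 to 0.388] the level of the 16 DES clusters. In integrated cluster 9 Msx2 was at 2.64 CPM in CO and 138 CPM in DES cells. At 3000 UMIs, 188 of 4559 DES epithelial cells outside the basal clusters (4.12% [3.57 to 4.74]) had a UMI of both Msx genes, next to a product of the 2 shares of 4.4%. The pair was found in 15 of 2076 CO luminal cells (0.723%) and in 0 of 71 cells of cluster 12 (exact 95% interval up to 5.06%).

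**Figure D2:**
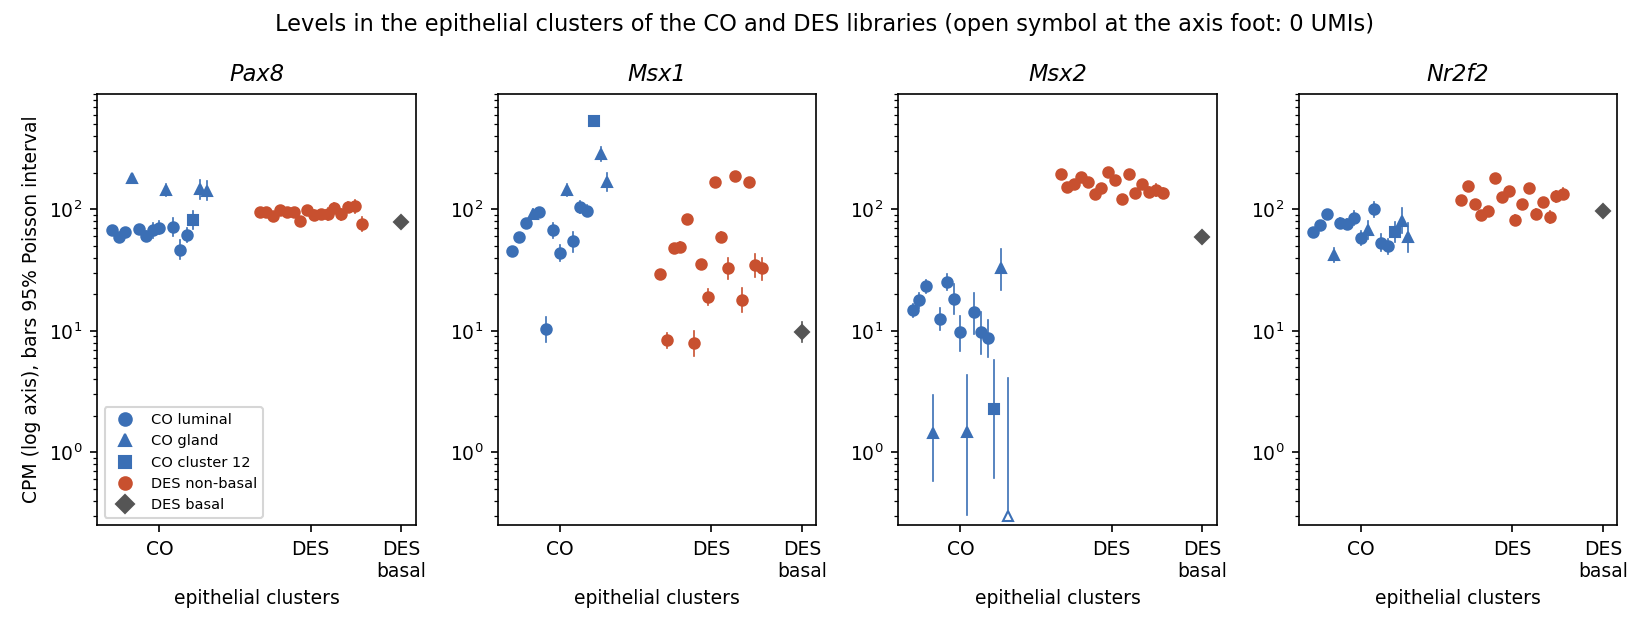
Level in CPM (log axis) of Pax8, Msx1, Msx2 and Nr2f2 in each epithelial cluster, with CO luminal clusters as circles, CO gland clusters as triangles, CO cluster 12 as a square, DES clusters as circles and DES basal cells as a diamond. An open symbol stands for 0 UMIs. Msx1 is spread widely in both libraries (10.3 to 531 CPM in CO, 7.89 to 189 CPM in DES), while the DES clusters lie close together for Pax8 (75.9 to 106 CPM) and Msx2 (122 to 202 CPM).

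In the sections, Msx1 fell and Msx2 rose with DES. Whole sections held 77.7 and 87.1 CPM of Msx1 in CO A and CO B and 13.8 and 7.29 CPM in DES A and DES B, without overlap. Msx1 fell by 3.18 ± 0.33 on the log2 scale (9.07-fold, adjusted p = 0.0212). Msx2 was at 21.2 and 17.1 CPM in CO and 59.0 and 65.3 CPM in DES, again without overlap, and rose by 1.49 ± 0.20 (2.80-fold, adjusted p = 0.0308). These were the only 2 of the 8 members tested that passed in whole sections, where 5.30% of 14098 genes passed (2.67% higher and 2.63% lower). Of the genes that passed, 50.3% were higher in DES, and 66.5% with plain totals, where Msx1 (-2.97) and Msx2 (1.70) also passed. The median log2 difference of the members was -0.13, with -0.01 over all genes. In bulk sums of spots, fewer cells of a type and less RNA per cell cannot be told apart.

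Epithelium-rich spots gave the same directions. Msx1 was at 98.4 and 151 CPM in CO and 6.78 and 2.71 CPM in DES, the latter from 20 and 8 UMIs, and fell by 5.01 ± 0.45 on the log2 scale (32.3-fold, adjusted p = 0.0134). Msx2 was at 34.2 and 32.4 CPM in CO and 79.7 and 85.9 CPM in DES and rose by 1.00 ± 0.19 (2.01-fold, adjusted p = 0.0414). Here 7.48% of 12044 genes passed (4.51% higher, 2.97% lower; 60.3% of these were higher, and 81.9% with plain totals), the members' median was -0.28, and that of all genes -0.02. Basal markers summed to 4.72 and 172 CPM in these CO spots and 9485 and 6764 CPM in the DES spots, and epithelial markers to 4909, 3416, 4557 and 4878 CPM in CO A, CO B, DES A and DES B. Myeloid markers were at 160 and 260 CPM in CO and 1690 and 813 CPM in DES, and muscle markers at 354 and 324 CPM against 711 and 998 CPM. The epithelium-rich spots with the smallest share of basal markers were also taken, a choice made after seeing the data. They were 177 of 354 in CO A, 223 of 446 in CO B, 192 of 385 in DES A and 168 of 336 in DES B. Ties, as among spots without any basal UMI, were settled by listed order. In this subset basal markers were at 0 CPM in both CO and 4815 and 3736 CPM in both DES sections. There Msx1 was at 97.6 and 168 CPM in CO and 13.3 and 3.37 CPM in DES (-4.28, adjusted p = 0.0180), and Msx2 at 36.5 and 28.5 CPM in CO and 96.8 and 99.1 CPM in DES (1.28, adjusted p = 0.0419). The part of basal, myeloid and muscle cells in the remaining difference was not tested.

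Stromal spots, the spot clusters that the study named as stroma, numbered 101 and 188 in CO and 211 and 132 in DES. Msx1 was at 43.0 and 50.9 CPM in CO, from 24 and 47 UMIs, and 4.92 and 11.5 CPM in DES, from 5 and 4 UMIs. It fell by 2.81 ± 0.53 on the log2 scale (7.02-fold, adjusted p = 0.0446) and was the only one of 7 members tested to pass, with 1.47% of 8914 genes passing (0.796% higher and 0.673% lower). These spots also held epithelial markers, at 1995 and 1135 CPM in CO and 1715 and 976 CPM in DES, while cells named stromal in the CO single-cell library held 5.37 CPM of Msx1 [4.12 to 6.87]. Basal markers were at 0 and 90.0 CPM in these CO spots and 7058 and 1998 CPM in the DES spots, muscle markers at 888 and 700 CPM against 2705 and 8369 CPM, and stromal markers at 5857 and 4446 CPM against 3393 and 2581 CPM. The part of these other cells in the stromal value was not tested. By edgeR the drop in epithelium-rich spots exceeded that in stromal spots by 1.98 ± 0.72 on the log2 scale, which did not pass (adjusted p = 0.321) and ran from -3.75 to -1.13 without 1 section. None of the 8 members tested passed this test of a difference, against 0.925% of 12218 genes by edgeR (0.606% toward higher and 0.319% toward lower in DES epithelium). The unadjusted p was under 0.05 for 1076 genes, Msx1 among them.

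The Msx calls rested on few sections. In whole sections the adjusted p of Msx1 was 0.0557 without DES A and 0.0860 without DES B, and that of Msx2 was 0.172 and 0.231, with log2 differences that stayed between -3.68 and -2.83 for Msx1 and between 1.32 and 1.68 for Msx2 over the 4 fits that left out 1 section. In epithelium-rich spots Msx1 passed under all 11 alternatives (adjusted p 2.08e-22 to 0.0348), with log2 differences of -5.78 to -4.52 without 1 section, whereas Msx2 did not pass without DES A (0.285) or DES B (0.371) or with the top 15% of spots (0.0819). With the section letter as a replicate block Msx2 missed the threshold in whole sections (0.0527) and epithelium-rich spots (0.0516). In stromal spots Msx1 did not pass without CO B (0.126), without DES A (0.407), without DES B (0.0569) or by DESeq2 (0.110), and its log2 difference ran from -3.36 to -1.98 without 1 section.

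Much of the Msx1 that was left in DES sections lay in muscle-rich clusters, and part of it in epithelial ones. By spot cluster it was highest in DES A cluster 6 (108 CPM, 166 spots) and DES B cluster 8 (53.9 CPM, 101 spots), whose muscle markers summed to 29583 and 26861 CPM. These held 58 of the 126 Msx1 UMIs of DES A and 31 of the 72 of DES B. Next by UMIs came DES A cluster 2, with 41 UMIs at 16.9 CPM over 286 spots, whose epithelial markers summed to 3713 CPM and muscle markers to 619 CPM, and DES B cluster 2, with 12 UMIs at 3.85 CPM, epithelial markers of 3821 CPM and muscle markers of 474 CPM. The remaining clusters held 1 to 8 UMIs each, among them DES A cluster 7 (40.0 CPM) and DES B cluster 10 (43.7 CPM), and the lowest levels were 1.33 CPM in DES A cluster 8 and 0.757 CPM in DES B cluster 1. In the CO sections the highest levels were in CO A cluster 5 (145 CPM) and in CO B clusters 2 and 4 (both 146 CPM). Muscle-rich spots, the top 25% by muscle markers without the stromal and epithelium-rich spots, held 49.1 and 11.5 CPM of Msx1 in CO and 79.3 and 35.3 CPM in DES, so that the groups overlapped there, and no test was run on these spots. They held 69 of the 126 Msx1 UMIs of DES A and 39 of the 72 of DES B, but 137 of the 972 of CO A and 29 of the 961 of CO B. The DES to CO ratio of Msx1 was 0.641 in dissociated epithelial cells, and DES epithelium held 50.9 CPM there against 6.78 and 2.71 CPM in DES epithelium-rich spots. The mice, the number of pooled animals, the choice of tissue region and the assay all differed between these values. The part of each was not tested.

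**Figure D3:**
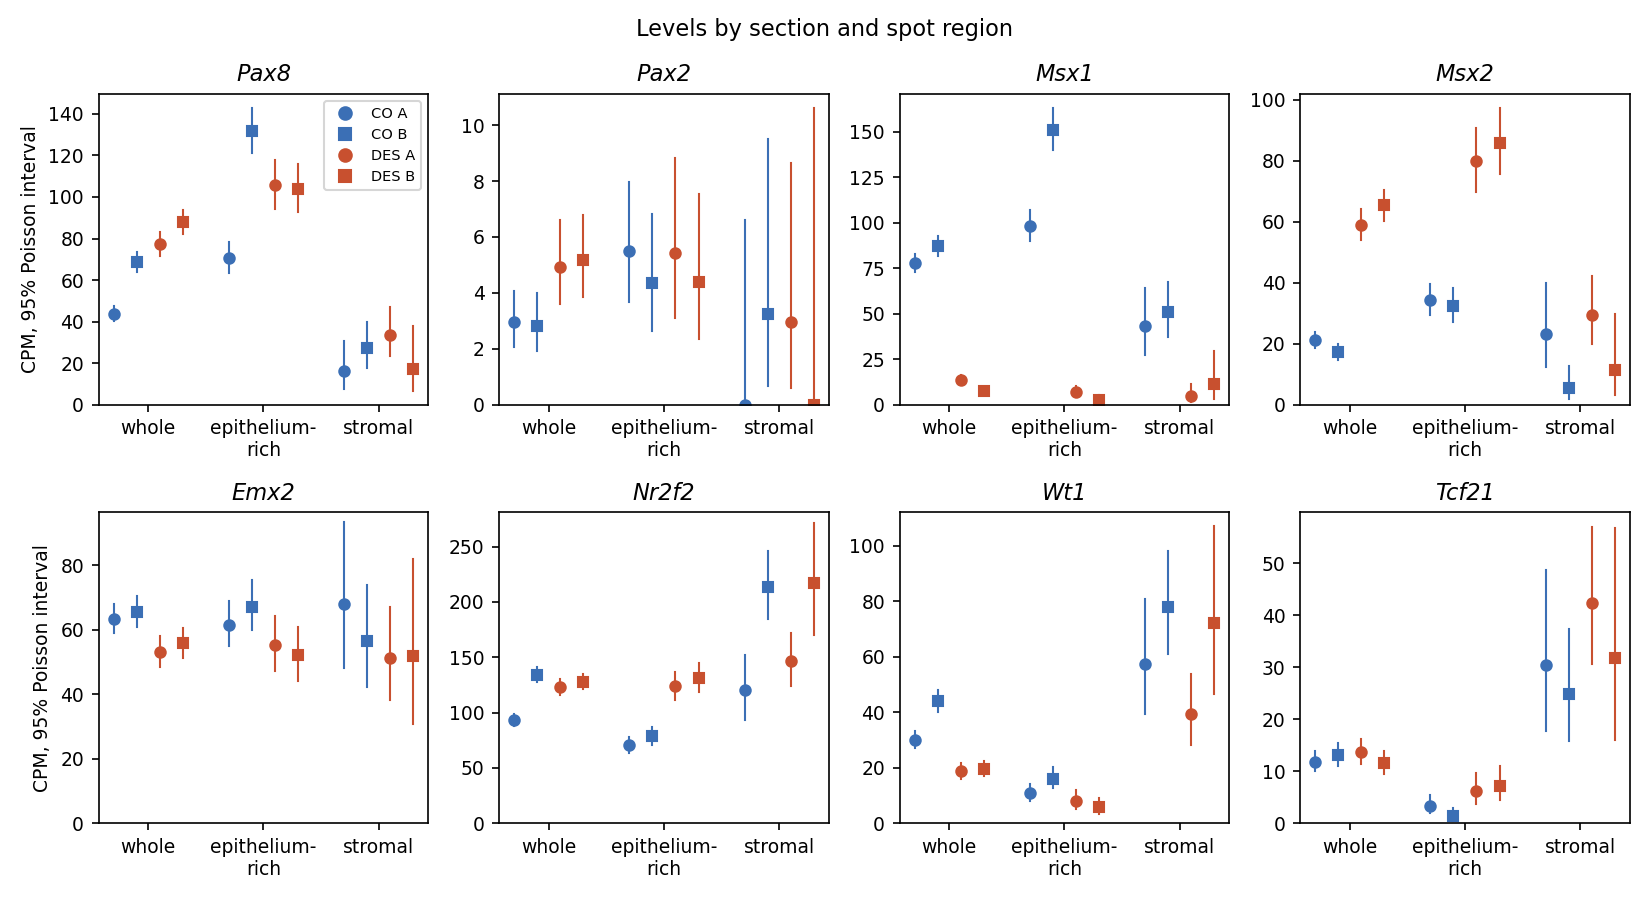
Level in CPM of 8 of the genes in whole sections, epithelium-rich spots and stromal spots of each of the 4 sections (points; CO A, CO B, DES A, DES B, 1 mouse each; bars are exact 95% Poisson intervals for counting error). Msx1 is lower in both DES sections than in both CO sections in all 3 regions, and Msx2 is higher in whole sections and epithelium-rich spots, while its stromal values overlap.

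Emx2, an empty-spiracles homeobox factor of the urogenital epithelium, lies at chr19:59458372-59465357 on the plus strand. Its level was alike in many cell types. The highest group was the 465 CO cells that the study's annotation names Ctla2a, with 75.6 CPM [65.8 to 86.6]. CO stromal cells (66.6 CPM), DES epithelial cells (64.6 CPM) and CO pericytes (62.4 CPM) followed, and each overlapped its neighbour in that order. Mesothelial cells held 50 CPM in CO and 44.2 CPM in DES (ratio 0.884 [0.843 to 0.928]), and epithelial cells 39.9 CPM in CO (DES to CO ratio 1.62 [1.55 to 1.68]). Endothelial and immune groups were at 5.71 to 12.8 CPM. Within epithelium it ran from 30.6 CPM in CO cluster 0 to 76.4 CPM in the mature gland cluster 13, and from 46.3 CPM in DES cluster 5 to 94.0 CPM in DES cluster 13.

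The sections showed the same even spread. Emx2 was at 63.4 and 65.5 CPM in CO and 53.2 and 55.8 CPM in DES sections, without overlap but short of the threshold (log2 -0.45 ± 0.16, adjusted p = 0.173), and its ratio of epithelium-rich to stromal spots was 0.905 to 1.19 in the 4 sections. In epithelium-rich spots it was at 61.6 and 67.2 CPM in CO and 55.3 and 52.1 CPM in DES (-0.57 ± 0.18, adjusted p = 0.115). The direction thus differed from that of the single-cell ratio, and the section values did not pass the test. Emx2 overlaps its antisense gene Emx2os by 264 bases, and whether the counting used strand is not given in the sources used here. Emx2os was at 8.08 and 19.8 CPM in CO and DES epithelial cells and at 12.1 to 16.9 CPM in the sections.

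Nr2f2, which in the uterus is best known in the stroma downstream of hedgehog signals, lies at chr7:70351944-70366735 on the minus strand. It was highest in CO pericytes, at 817 CPM [725 to 917] over 75 cells, followed without overlap by Ctla2a cells (294 CPM), stromal cells (191 CPM), myocytes (146 CPM) and DES epithelial cells (119 CPM [117 to 121]). DES and CO mesothelial cells (98.4 and 96.4 CPM) and CO endothelial cells (91.7 CPM) did not differ beyond their intervals, and CO epithelial cells held 71.1 CPM [69.2 to 72.9]. The DES to CO ratio was 1.67 [1.62 to 1.72] in epithelium and 1.02 [0.987 to 1.05] in mesothelium. The share of epithelial cells with an Nr2f2 UMI at 3000 UMIs was 19.1% in CO and 28.5% in DES, against 5.48% and 1.41% of lymphocytes.

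Within epithelium Nr2f2 was lowest in gland cluster 3 (42.2 CPM) and highest in luminal cluster 9 (100 CPM) of CO, and lowest in cluster 8 (82.3 CPM) and highest in cluster 5 (180 CPM) of DES. DES cluster 5 also had the lowest value of Emx2 and of Msx1 among the 16 clusters, but its Emx2 interval [41.9 to 51.0] overlapped those of clusters 15 [46.7 to 64.3] and 12 [50 to 64.8], and its Msx1 interval [6.15 to 9.97] that of cluster 1 [7.16 to 9.66]. In epithelium-rich spots Nr2f2 was at 70.6 and 78.5 CPM in CO and 124 and 131 CPM in DES. The groups did not overlap, but the difference did not pass (log2 0.47 ± 0.18, adjusted p = 0.170). In stromal spots the values of 120 and 214 CPM in CO and 147 and 217 CPM in DES overlapped (0.06 ± 0.39, adjusted p = 0.976), as did the whole-section values of 93.4 and 134 CPM and 123 and 128 CPM (-0.06 ± 0.22, adjusted p = 0.898, and 0.14 with plain totals). The highest spot cluster was CO B cluster 7, at 401 CPM. Of its paralogs, Nr2f6 was at 69.2 and 71.4 CPM in CO and DES epithelial cells, and Nr2f1 at 0.0381 and 1.61 CPM, from 3 and 283 UMIs.

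Wt1, the zinc-finger factor of the coelomic epithelium and its descendants, lies at chr2:105126529-105173616 on the plus strand. Among groups of at least 50 cells it was highest in DES mesothelial cells, at 276 CPM [272 to 280], followed by Ctla2a cells (243 CPM [225 to 262]) and CO mesothelial cells (239 CPM [236 to 243]), which did not differ beyond their intervals. CO myocytes (117 CPM) and stromal cells (106 CPM) came next. The 22 CO cells named Stmn1-hi, too few to enter the order, held 222 CPM [179 to 272]. Epithelial cells were at 4.83 CPM [4.36 to 5.35] in CO and 2.09 CPM [1.89 to 2.32] in DES, below the 11.6 and 14.1 CPM of lymphocytes, and are read as background. CO myeloid cells, 67 in number, were at 73.0 CPM [53.3 to 97.7] and also carried 4950 CPM of the stromal markers. As given above, those markers did not set stroma apart from mesothelium. At 3000 UMIs, 49.5% [48.3 to 50.7] of CO and 54.4% [52.8 to 56.0] of DES mesothelial cells had a Wt1 UMI (84.2% and 90.6% before thinning).

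Tcf21, a basic helix-loop-helix factor of mesenchyme beneath coelomic linings, lies at chr10:22817281-22820174 on the minus strand. It was at 90.4 CPM [88.1 to 92.7] in DES and 56.8 CPM [55.2 to 58.5] in CO mesothelial cells, the highest DES to CO ratio of the 5 members with at least 20 CPM in mesothelium, at 1.59 [1.53 to 1.65]. CO pericytes (65.2 CPM [41.4 to 97.9]) overlapped both, stromal cells were at 41.7 CPM and Ctla2a cells at 31.9 CPM. Epithelial cells were at 0.863 CPM in CO and 0.448 CPM in DES. The share of mesothelial cells with a Tcf21 UMI at 3000 UMIs was 14.4% [13.6 to 15.3] in CO and 22.4% [21.0 to 23.7] in DES. Cells with a UMI of both Wt1 and Tcf21 were 468 of 6718 CO (6.97% [6.37 to 7.60]) and 437 of 3782 DES mesothelial cells (11.6% [10.6 to 12.6]). The products of the 2 shares were 7.14% and 12.2%, within those intervals.

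**Figure D4:**
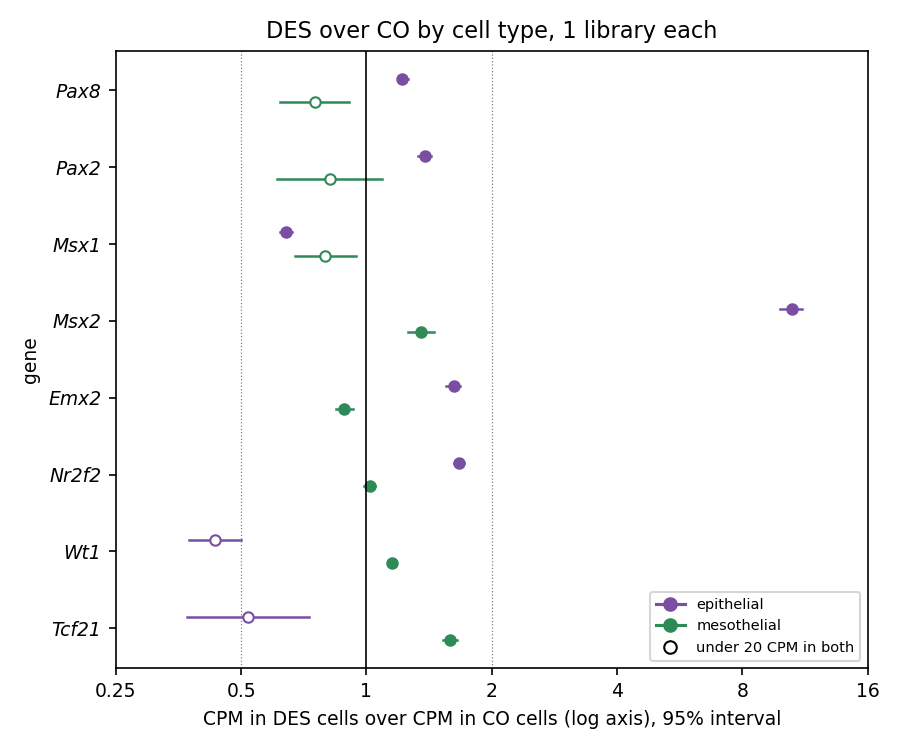
DES to CO ratio of each gene's CPM (log axis) in epithelial and mesothelial cells of 1 library per treatment, with the exact 95% interval for counting error. Open symbols mark genes under 20 CPM in both libraries; Msx2 in epithelium stands apart at 10.5, Msx1 in epithelium is below 1 at 0.641, and mesothelial ratios of the filled symbols lie between 0.884 and 1.59.

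In whole sections Wt1 was at 30.1 and 44.0 CPM in CO and 18.8 and 19.5 CPM in DES. The groups did not overlap and the difference was -1.16 ± 0.23 on the log2 scale, short of the threshold (adjusted p = 0.0626; DESeq2 gave 0.00723). Muscle markers, given above for whole sections, were also lower in both DES sections, and their part in the Wt1 difference was not tested. In stromal spots the Wt1 values overlapped, at 57.3 and 78.0 CPM in CO and 39.4 and 72.2 CPM in DES (-0.40 ± 0.43, adjusted p = 0.778). Muscle-rich spots held 64.6 and 86.4 CPM in CO and 81.6 and 84.3 CPM in DES. Tcf21 was at 11.8 and 13.1 CPM in CO and 13.6 and 11.5 CPM in DES whole sections (-0.19 ± 0.21, adjusted p = 0.635, and 0.01 with plain totals), and at 30.4 and 24.9 CPM in CO and 42.3 and 31.8 CPM in DES stromal spots (0.41 ± 0.38, adjusted p = 0.742). Both genes were lower in epithelium-rich than in stromal spots in all 4 sections, at 0.0797 to 0.207 times for Wt1 and 0.0552 to 0.224 times for Tcf21. Wt1os, annotated 18 bases from Wt1 on the other strand, was at 12.4 and 15.9 CPM in CO and DES mesothelial cells and at 2.48 and 3.26 CPM in CO and 1.21 and 0.810 CPM in DES sections.

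Lhx1, the LIM-homeobox factor of the growing duct, lies at chr11:84518284-84525535 on the minus strand and was not detectable above background at this depth. Epithelial cells held 2 UMIs in CO and 3 in DES (0.0254 and 0.0170 CPM), and mesothelial cells 0 UMIs, which allows up to 0.0361 CPM in CO and 0.0464 CPM in DES. The sections held 0 UMIs in CO A and CO B, which allows up to 0.240 and 0.272 CPM, and 1 UMI each in DES A and DES B. It did not pass the filter on low counts and was not tested, as was Pax2 in stromal spots.

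The order of levels over the 14 groups of at least 50 cells was alike for some members and not for others. Pearson's r of log2(CPM + 1) over these groups, which share 2 libraries and their depths, was 0.89 for Pax8 and Pax2, 0.91 for Wt1 and Tcf21 and 0.81 for Nr2f2 and Emx2, but 0.15 for Msx1 and Msx2, and -0.70 for Wt1 and Pax8. Among 10155 genes, those most like Pax8 were Dlx5 (r = 0.97), Wfdc2 and RP24-16C11.2 (both 0.96), and those most like Pax2 were Tmem40 (0.98), Cldn23 and Sv2b (both 0.96). Wt1 was most like RP24-459A4.7 (0.99), Cdh11 and Bicc1 (both 0.97), and Tcf21 most like C1s1 (0.99), Lhfp and Mdk (both 0.97). Msx1 was most like AC164564.3 (0.94), Shisa2 (0.93) and Lama5 (0.92), and Msx2 most like Pfdn2 (0.93), Capsl (0.92) and Cryl1 (0.91). Emx2 was most like Mthfd2l, Pard3 and Rbms3 (all 0.94), and Nr2f2 most like Srek1 (0.95), Fam149b and Zfp266 (both 0.94).

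A wider list of 48 genes of reproductive tract development set the members beside their pathway. In epithelial cells 19 of them had at least 20 CPM in either library, and 7 were at least 2-fold higher and 0 at least 2-fold lower in DES, against the 5.60% and 7.62% of all genes given above. Among them were the ligand Wnt4 at 2.14 times, which acts in duct invagination, and Wnt7a at 6.61 times, the epithelial ligand that patterns the tract. The transcription factors Sox17 and Tcf3 were at 2.29 and 2.14 times. The cell-polarity gene Vangl2 was at 2.03 times and the receptor Fgfr2 at 2.68 times. The list's median ratio was 1.55, with 1.01 over all genes. The DES epithelial cells included basal cells, 608 of them in integrated clusters 8 and 11. The list was not computed without them, and their part in these ratios was not tested. In mesothelial cells 1 of 18 was 2-fold higher (Osr2, 2.56 times) and 0 lower, against 1.75% and 2.11% of all genes, and the median was 1.05 with 0.975 over all genes.

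In whole sections 3 of 42 genes of that list rose and 2 fell with DES, where 2.67% of all genes rose and 2.63% fell. Foxa2, the gland factor, rose 6.58-fold (adjusted p = 0.0308), Wnt4 3.81-fold (0.0284) and Wnt7b 3.10-fold (0.0435), whereas Hoxd10 fell 6.40-fold (0.0312) and Hand2, the stromal progesterone-response factor, fell 5.83-fold. Stromal markers were also lower in DES, at 2915 and 2931 CPM in CO and 1359 and 968 CPM in DES whole sections. In epithelium-rich spots they were at 1320 and 976 CPM against 661 and 490 CPM. Their part in the Hand2 and Hoxd10 values was not tested. In stromal spots Hand2 was 2.34-fold lower (adjusted p = 0.306) and Hoxd10 6.81-fold lower (0.136), and neither passed the edgeR test. In epithelium-rich spots 2 of 34 rose (Foxa2 7.86-fold, Wnt4 3.01-fold) and 2 fell (Hoxd10 11.3-fold, Hand2 8.13-fold), against 4.51% and 2.97% of all genes. In stromal spots 1 of 29 rose (Wnt4, 4.06-fold) and 0 fell, against 0.796% and 0.673% of all genes. These calls also rested on few sections. None of the 5 in whole sections passed the edgeR test without DES A or without DES B, and all 5 passed without either CO section. Of the 4 in epithelium-rich spots, Foxa2 alone passed without DES A and 0 passed without DES B, and Wnt4 in stromal spots passed only without CO A. The directions stayed in all of these fits, and Hoxd10 in whole sections was 9.99-fold lower without DES B. The list's median log2 difference was -0.12 in whole sections, -0.12 in stromal spots and -0.11 in epithelium-rich spots, with -0.01, 0.00 and -0.02 over all genes. The edgeR test of a difference between the regions passed for 0 of 37, against 0.925% of all genes. Sox17, at 2.29 times in dissociated DES epithelium, had differences of the opposite sign in the sections, none of which passed the edgeR test (log2 -1.03 in whole sections, adjusted p = 0.0680, -1.46 in epithelium-rich spots, 0.0548, and -1.20 in stromal spots, 0.161). Wnt7b, which passed in whole sections, was at 34.8 and 25.8 CPM in dissociated CO and DES epithelial cells, a ratio of 0.742, and did not pass the edgeR test in epithelium-rich spots (1.96-fold, adjusted p = 0.0996) or stromal spots (2.96-fold, 0.127).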

How the data were processed

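Single-cell counts were made by the authors with Cell Ranger 3.0.1 on mm10, doublets were removed by the authors, and the deposited counts are UMIs per gene and cell, not normalized. The deposited saturation values, which the authors give as a fraction per cell, were not used. The authors counted UMIs per Visium spot with Space Ranger 1.2.2. The labels' processing notes also name bcl2fastq 2.20.0.422. Cell types, epithelial clusters and spot clusters are those of the authors, and 350 cells of the metadata without counts were left out.

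UMIs were summed per cell type, cluster, region or section. Shares of cells were computed after thinning to 3000 UMIs with a fixed seed, leaving out shallower cells, with Clopper-Pearson intervals, and CPM and ratios carry exact Poisson and conditional binomial intervals. These and the limit of 3 UMIs for a count of 0 cover counting error only. Genes of at least 20 CPM in either library were compared at 2-fold. Sections, the replicates, were compared with edgeR 4.0.16 (TMM factors, filterByExpr, quasi-likelihood test, Benjamini-Hochberg at 0.05, two-sided); DESeq2 1.42.0 was an alternative. Over whole sections, same-lettered sections did not deviate together (r = -0.03 over 14098 genes), and the letter was not taken as a pair. This was not checked within the stromal or epithelium-rich spots. Simulated data were drawn with 1 assumed dispersion of 0.05 for every gene and without section effects, so the recovery holds for that setting. In tests on simulated data of the whole sections, 93 of 97 genes changed 4-fold and 8 of 99 changed 2-fold were recovered. Of those changed 4-fold, 75 of 94 were recovered in stromal spots, 77 of 98 in epithelium-rich spots and 29 of 98 in the difference between the regions, where 0 of 98 changed 2-fold were.

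The members, lists and tests were chosen with earlier results of these data known. Named genes were the 9 members, for each the 3 genes of highest correlation, called genes of the developmental list (1 is not reported here), and paralogs and antisense partners. Lymphocyte shares served as background; the pseudocount of the likeness was 1 CPM.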

Additional observations from a re-analysis of the deposited data

Results flagged for a closer look

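Cells without a named cell type, 20134 in the CO and 6611 in the DES library, enter no comparison above. In them 2 of 7 members with at least 20 CPM were at least 2-fold higher in DES and 0 lower, against 3.93% and 5.13% of 5746 genes. Msx2 was at 11.4 CPM in CO and 76.1 CPM in DES, a ratio of 6.70 [6.33 to 7.09]. Pax2 was at 15.6 and 36.5 CPM, a ratio of 2.34 [2.19 to 2.49]. Both genes reached 20 CPM only in DES, so the rule could not have counted them as lower. These cells held 2425 and 2220 CPM of the epithelial markers and 7078 and 4024 CPM of the stromal markers, basal markers at 3.82 and 349 CPM, myeloid markers at 86.9 and 709 CPM and mesothelial markers at 842 and 537 CPM, at median depths of 4137.5 and 2178 UMIs. With 1 library per treatment the differences were not tested, nor was the part of these cell types in them.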

How the results depend on the processing

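For the 306 fits of a member under another setting, 262 kept direction and side of the threshold, 13 lost the call, 8 gained one and 23 turned direction. The count in whole sections (747) was 1748 by DESeq2 and 3 to 2819 without 1 section. That in stromal spots (131) was 714 without the filter, 453 with the replicate block, 83 with spots chosen by stromal score and 40 to 357 without 1 section. That in epithelium-rich spots (901) was 547 in the spots lowest in basal markers and 116 to 3479 without 1 section. The difference between regions (113) gave 50 by DESeq2, 203 without the filter and 64 to 158 without 1 section. With the replicate block whole sections gave 527 and epithelium-rich spots 1101, although the letter was not taken as a pair. The fit of the difference already held the section as a block. In single cells 3 members in place of 1 were 2-fold apart when cells were chosen by at least 2 of Epcam, Krt18 and Cdh1 (Msx2 8.45, Pax2 2.02, Wt1 0.397; 12.9% of 6541 genes were), a rule that also admits annotated cells of other types; 13 of 64 ratios moved and 0 turned direction.

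No member turned direction in a comparison in which it had passed the test, and the cause was not tested. On the log2 scale, leaving out 1 section gave Nr2f2 -0.28 to 0.19 in whole sections, Pax8 -0.61 to 0.25 in epithelium-rich spots, and in stromal spots Pax8 -0.31 to 0.70, Nr2f2 -0.33 to 0.55, Msx2 -0.18 to 1.93 and Wt1 -0.93 to 0.12. For the difference between regions it gave Pax8 -0.75 to 0.09, Pax2 -5.66 to 4.84, Nr2f2 -0.05 to 0.71 and Msx2 -1.0 to 1.22. With stromal spots chosen by score, Nr2f2 was -0.41 in them, and the difference between regions was 0.56 for Pax2, -0.19 for Msx2 and -2.62 for Msx1 (adjusted p = 0.0217 against 0.321), the latter chosen after seeing the data. With plain totals Nr2f2 (0.14) and Tcf21 (0.01) in whole sections, Pax8 (0.06) in epithelium-rich spots, and Pax2 (0.01) and Emx2 (0.00) in the difference between regions turned, and 84.7% in place of 65.5% of the latter's calls were higher. Wt1 passed in whole sections without CO A (0.00883) or CO B (0.0266), and without CO A in epithelium-rich spots (0.0150), as did Pax8 (0.0202) and Emx2 (0.0323), and Nr2f2 without CO B (0.0435). Simulated 2-fold changes were mostly missed at this depth, number of sections and assumed dispersion.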

Other observations

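In integrated epithelial cluster 18, which held 24 CO and 43 DES cells, Pax2 was at 74.9 CPM in CO and 141 CPM in DES, and Msx1 at 411 and 214 CPM. In DES A cluster 6, the muscle cluster with the highest Msx1 of that section, Wt1 was at 101 CPM and Tcf21 at 42.9 CPM, and in DES B cluster 8 Wt1 was at 113 CPM. The basal markers of CO B (160 CPM) and CO A (3.36 CPM) differed although both are controls. In CO B they came mainly from cluster 10, of 17 spots, at 6025 CPM, with 2.68 to 94.8 CPM in its other clusters. Of the 8 members detected in whole CO sections, 6 were higher in CO B (Pax8, Wt1, Nr2f2, Msx1, Emx2 and Tcf21) and 2 in CO A (Pax2 and Msx2).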
